A study of Hydra vulgaris with 15 samples.

Results

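In the freshwater polyp Hydra vulgaris, 178 transcripts differed between Zic4 RNAi and control body columns. Their mean level in heads stayed nearly level when scaled by library totals, which depended on the scaling. RNA interference (RNAi) reduces the transcripts of a targeted gene. The 178 were chosen by their values. Levels are given as CPM, a transcript's count over the library total times 1000000. A transcript had to average at least 10 CPM over all 15 libraries, the RNAi and control body columns were not to overlap in any library, and the ratio of their means was to be at least 1.5 or at most 0.67. In heads the ratio of the RNAi mean to the control mean had to lie within a window from 0.8 to its inverse. Of 79784 contigs in the table, 9548 reached the minimum of 10 CPM. Among these, 74 were higher and 104 were lower in RNAi body columns and met every condition.

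The study measured polyadenylated RNA by sequencing in 4 groups of the strain Basel1. They were 4 Zic4 RNAi body columns, 3 control body columns, 4 Zic4 RNAi heads and 4 control heads. The genotype of the controls is given as wild-type, and electroporation 4 times is given for all animals, but the RNA that control animals received is not given. Polyps went without food for 4 days beforehand. RNA was taken from pools of 20 polyps per condition, 1 day after electroporation ended. The titles number the replicates, but nothing says that they came from separate cultures, so p-values measure the spread between these samples, which may be technical. A source label reads entire animal for every sample, while the tissue label and the protocol give head or body column. Library totals lay between 16020872 and 22554240 counts.

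Zic proteins are zinc finger transcription factors. In Hydra, epithelial cells divide along the body column and are displaced toward the tentacles at the head end and toward the foot at the other end, where they take on the character of those regions. Zic4 is known for its role in maintaining the epithelial cells of tentacles in Hydra. The body column is the source of tentacle cells and holds most of the dividing epithelial cells and the interstitial stem cells.

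The contigs are named by assembly accession alone, the deposited table does not pair them with genes, and 0 of the 178 IDs matched a table of 28925 RefSeq genes. Gene functions, protein sequences, positions and tissue markers were therefore not used here, and neither was the level of Zic4 itself, so treatment and tissue rest on the labels. Several contigs can belong to 1 gene, and contigs of similar sequence can share reads. In bulk tissue, fewer cells of a type and less RNA per cell cannot be told apart.

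The selection gave 2 sets with different abundance. The 74 higher transcripts had a median level of 27.6 CPM over all libraries, with quartiles at 15.2 and 58.7 CPM and a highest mean of 828 CPM. The 104 lower transcripts had a median of 17.0 CPM, quartiles at 12.3 and 27.4 CPM and a highest mean of 396 CPM. Means of at least 100 CPM were found for 13 higher and 5 lower transcripts. The most abundant transcript held 15.6% of the summed level of the higher set, and its counterpart in the lower set held 12.1%.

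**Figure D1:**
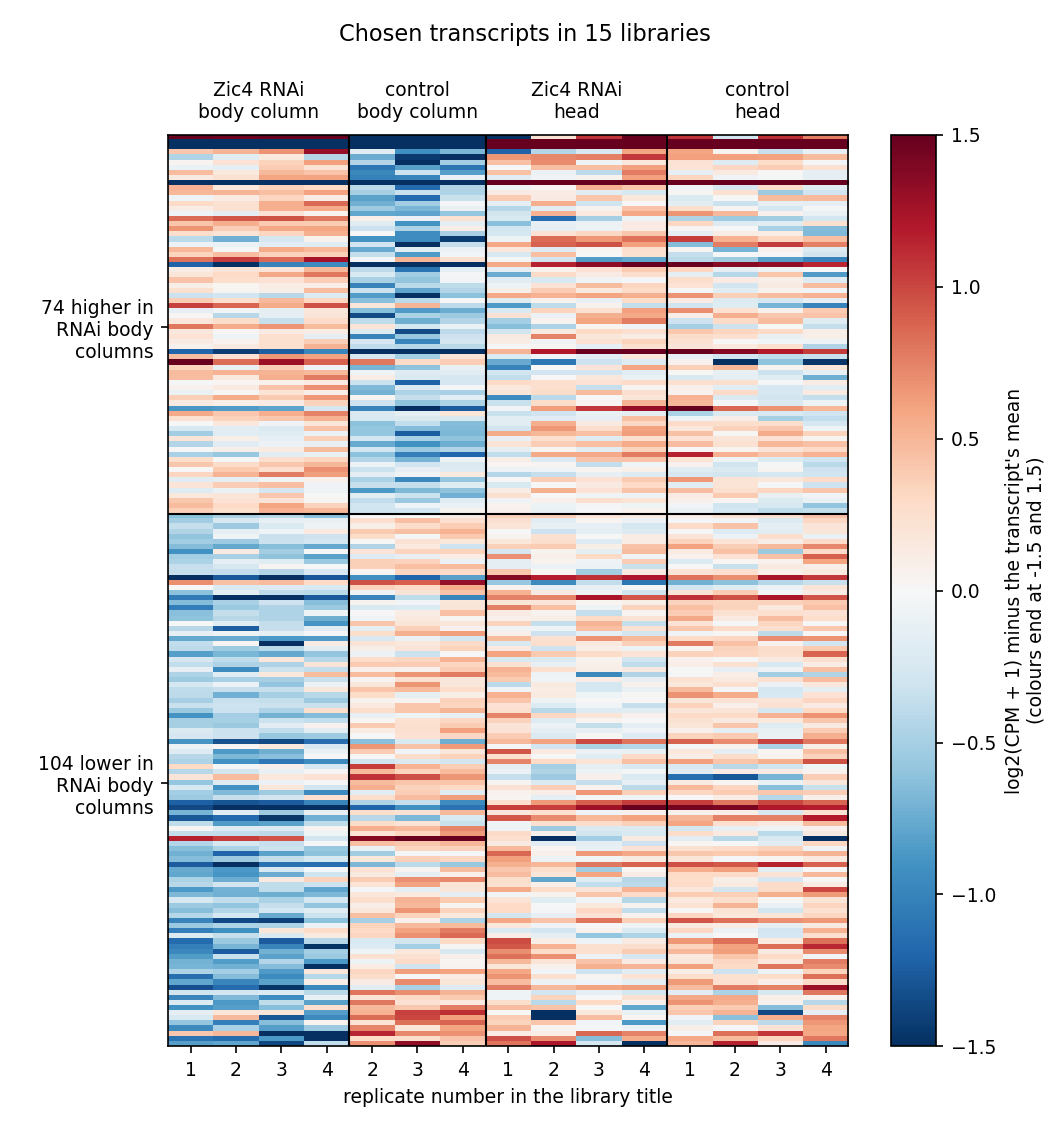
Level of each of the 178 chosen transcripts (rows) in the 15 libraries (columns), as log2(CPM + 1) minus the transcript's mean over all libraries. The groups run from RNAi body columns to control heads. The 4 RNAi and 3 control body columns differ in every row because the rows were chosen for it, while heads of both treatments are mixed.

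Most of the differences in body columns were small. The ratio of RNAi to control means in the higher set had a median of 1.63 and quartiles of 1.55 and 1.76, and 10 of the 74 reached 2. In the lower set the median ratio was 0.623, with quartiles of 0.579 and 0.648, and 9 of the 104 were at 0.5 or less. The closest pair of an RNAi and a control library was separated by a median factor of 1.21 in the higher set and 1.20 in the lower set. That factor was under 1.1 for 15 higher and 28 lower transcripts. The ratio nearest to the limit was 1.5004 inside and 1.4994 outside for the higher set, and 0.66695 inside and 0.67010 outside for the lower set. These values chose the members and carry no test.

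The conditions were met against a background of many transcripts with separate body column groups. Of the 9548 transcripts at 10 CPM or more, 11.1% had all RNAi body columns above all control body columns and 11.6% had them all below. With the fold limits, 1.54% (147 transcripts) remained higher and 1.74% (166) remained lower, before heads were considered. Of the 147, 51 had a head ratio above that window and 22 had one below it. Of the 166, 49 had a head ratio below the window, 12 had one above it, and for 1 no ratio could be formed. The same conditions with the tissues exchanged gave 71 transcripts higher and 248 lower in RNAi heads with a near-level body column.

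Which transcripts were chosen depended on scaling and on single libraries. With CPM scaled by TMM factors, which correct for composition, 109 were higher and 79 lower, so that the higher share was 58.0% in place of 41.6%. Of these, 55 and 64 were also in the sets chosen without that scaling. The median log2 ratio of all 9548 transcripts in body columns was 0.065 with TMM factors and 0.0046 without them. Leaving out 1 library removes a condition and can add transcripts. Without control body column replicate 4 there were 214 higher transcripts, without control body column replicate 2 there were 120, and without RNAi body column replicate 2 there were 116. The lower set grew to 162 without control body column replicate 2. Of the original sets, 50 to 72 higher and 77 to 97 lower transcripts were kept when any 1 of the 15 libraries was left out, and the smallest number kept in the higher set was that without control body column replicate 3.

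Summed over each set, the body column groups were apart and the head groups overlapped for the higher set. The 74 higher transcripts summed to 4984, 4980, 5068 and 5805 CPM in RNAi body columns and to 3395, 2788 and 3326 CPM in control body columns. In RNAi heads they summed to 4494, 5918, 6478 and 7450 CPM, and in control heads to 7737, 5946, 5869 and 5494 CPM. The head libraries thus spanned a wider range than either body column group, and most of them lay above the RNAi body columns. That position rested on 3 transcripts with a head mean at least 10 times the body column mean. Without these 3 the means were 5086 CPM in RNAi heads, 5117 CPM in control heads and 5178 CPM in RNAi body columns. The 104 lower transcripts summed to 1916, 1885, 1893 and 2128 CPM in RNAi body columns and to 3125, 3448 and 3242 CPM in control body columns. In RNAi heads they summed to 3950, 3496, 3969 and 3688 CPM, and in control heads to 4087, 3973, 4026 and 4404 CPM. For the lower set every head library lay above every body column library, and RNAi heads lay below control heads in all 4 libraries although each member was held inside the head window.

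**Figure D2:**
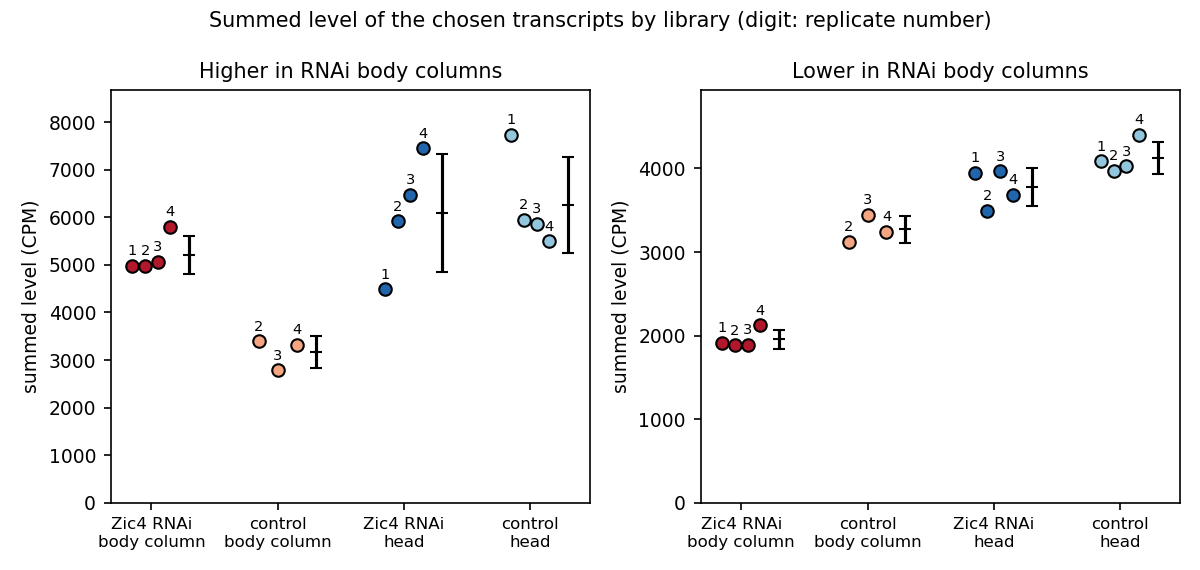
Summed level in CPM of the 74 transcripts higher (left) and the 104 lower (right) in RNAi body columns, 1 point per library with its replicate number, and mean and SD beside each group. Heads of the higher set range from 4494 to 7737 CPM, and heads of the lower set lie between 3496 and 4404 CPM.

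Inside the head window the CPM ratios of the 2 sets leaned the way of their body columns. The rule used these head ratios, so the lean is a description with no test. The median head ratio was 1.07 in the higher set, where 47 of 74 were above 1, and 0.911 in the lower set, where 20 of 104 were above 1. The median of all 9548 transcripts was -0.035 on the log2 scale. The ratios ran from 0.812 to 1.249 in the higher set and from 0.801 to 1.243 in the lower set. The nearest transcripts outside the window had 0.789 below it among transcripts higher in RNAi body columns, and 0.799 below it and 1.43 above it among those lower there. With TMM factors the median log2 head ratio of all 9548 transcripts was 0.081. In the edgeR fit, which uses these factors, the median log2 head difference was 0.21 in the higher set and -0.016 in the lower set, beside 0.081. It ran from -0.20 to 0.43 in the higher set and from -0.20 to 0.44 in the lower set. Under this scaling some members thus lay past the upper end of the head window. RNAi and control heads did not overlap for 3 of the 74 and 2 of the 104, where 14.5% of all transcripts at 10 CPM did not overlap in either direction, and the window itself limits this number.

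A quasi-likelihood test (edgeR) was run on all 31142 transcripts that passed its filter on low counts, which all 178 members did, with p-values adjusted over all of them (Benjamini-Hochberg, BH). Between RNAi and control body columns it called 39 of the 74 higher transcripts, where 1.51% of all tested transcripts and 4.46% of those at 10 CPM were called higher. It called 36 of the 104 lower transcripts, where 0.543% and 0.953% were called lower. In either direction 2.06% of all tested transcripts and 5.41% of those at 10 CPM were called. The rule chose on this contrast, so the counts describe the members only. The median log2 fold change was 0.77 in the higher set and -0.62 in the lower set, and 0.064 over all transcripts at 10 CPM. With library size alone as scaling, 13 higher and 19 lower members were called, and the split of all calls was 64 higher and 79 lower in place of 471 and 169. Without control body column replicate 3, 9 higher and 5 lower members were called. Without control body column replicate 2 these numbers were 13 and 12, and without any 1 of RNAi body column replicates 1, 2 and 3 they were 18, 25 and 19 higher and 11, 12 and 16 lower. Without control body column replicate 4, 22 lower members were called.

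That the effect differed between tissues was called for few members. The difference of the effects (body column minus head) was past the threshold for 6 of the 74 and 4 of the 104 (edgeR, BH adjusted p under 0.05), where 1.07% of all tested transcripts were called more positive and 0.501% more negative in body columns. At 10 CPM the shares were 2.31% and 1.14%. In either direction 1.57% of all tested transcripts and 3.46% of those at 10 CPM were called. With an unadjusted p under 0.05 the numbers were 45 and 73, where 13.9% of all tested transcripts passed. The DESeq2 Wald test called 23 and 38, where it called 5.8% of all. The rule used both ratios that enter this difference, so its counts and medians describe the members and carry no test. The median difference was 0.59 in the higher set and -0.62 in the lower set on the log2 scale, with median standard errors of 0.25 and 0.24. Leaving out 1 library gave between 1 and 6 calls in the higher set and between 1 and 12 in the lower set. For most of the 178, a difference between body column and head in the effect of RNAi was thus not called, although they were chosen for a near-level head. In heads themselves 1 of the 74 and 0 of the 104 were called, where 4.76% of all tested transcripts were called, 2.65% as higher and 2.11% as lower in RNAi heads. At 10 CPM 11.5% were called, 7.53% as higher and 3.96% as lower. At an unadjusted p under 0.05 the head numbers were 11 and 1, where 16.7% of all tested transcripts passed, and DESeq2 called 4 and 0, where it called 9.9% of all. The rule held the head ratio near 1, so nothing is read from these numbers.

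The level of heads against body columns was not itself a condition of the rule. The mean of the 8 heads was compared with the mean of the 7 body columns, each library weighted equally. For equal variances its sampling error is independent of that of the RNAi difference. The 7 include the RNAi body columns, so a chosen change there moves this contrast. The counts of members called are therefore a description with no test. Of the 74 higher transcripts, 23 were higher in heads and 17 higher in body columns (edgeR, BH adjusted p under 0.05), and 34 were not called. Of all tested transcripts 18.8% were called higher in heads and 17.4% higher in body columns, together 36.2%. Of those at 10 CPM, 29.8% were higher in heads and 36.2% higher in body columns, together 66%, so the 40 called members are 54.1% of the set beside that share. The 23 had a median log2 difference of 0.89, of which 11 reached 1, and the 17 had a median of -0.54, of which 4 reached -1. In percent of the set, 31.1% of the higher transcripts were called toward the head and 23% toward the body column.

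In the lower set most of the members called in this pooled contrast were higher in heads, which was not so in control libraries alone. Of the 104, 42 were higher in heads and 12 higher in body columns (edgeR, BH adjusted p under 0.05), which is 40.4% and 11.5% of the set beside 29.8% and 36.2% of all transcripts at 10 CPM. The 42 had a median log2 difference of 0.73 and 13 of them reached 1, with 2.74 as the highest. The 12 had a median of -0.53, and 3 reached -1. The median over the whole set was 0.22, beside -0.049 over transcripts at 10 CPM and 0.060 over all tested. In any fit that left out 1 library, 48 to 54 of the 104 and 37 to 41 of the 74 were called. The split of the higher set was 19 in heads and 22 in body columns without control body column replicate 2. It was 21 and 19 without control body column replicate 3, and 19 and 18 without control body column replicate 4, so its direction was not stable. The minimum of 10 CPM over all libraries could be reached through 1 tissue alone, and such a member had to differ between tissues. In the higher set 11 members had a mean of 10 CPM or more in heads only and 1 in body columns only, and in the lower set 13 and 8. Of the members at 10 CPM or more in both tissues, 16 of 62 in the higher set were called higher in heads and 17 higher in body columns, and in the lower set 31 and 5 of 83. The direction also differed by treatment in both sets. In RNAi libraries alone 48 lower members were called higher in heads and 1 higher in body columns, and in control libraries alone 16 and 20. For the higher set the numbers were 13 and 22 in RNAi libraries alone, and 30 and 6 in control libraries alone. Within 1 treatment the body columns are those the rule chose on, and the pooled contrast holds the same libraries. The rule moves the calls of the 2 treatments in opposite directions, so neither split carries a reading of its own. The lean of the lower set toward the head, not present in controls alone, is a description with no test.

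**Figure D3:**
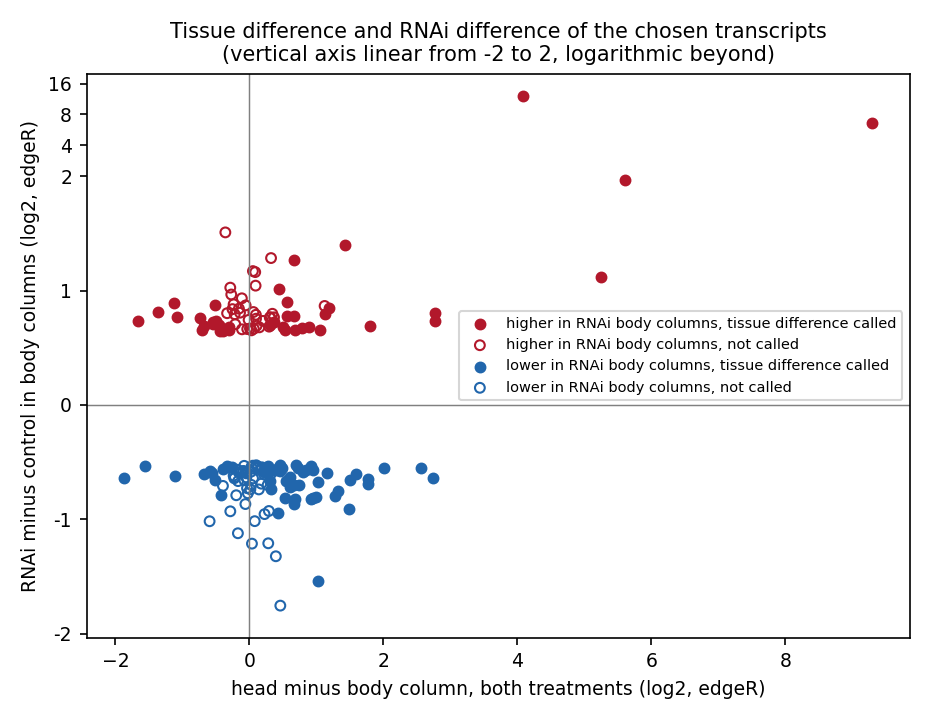
Head minus body column over both treatments (horizontal, log2) against RNAi minus control in body columns (vertical, log2, linear from -2 to 2 and logarithmic beyond), both from edgeR, for the 178 chosen transcripts. Filled points have a called tissue difference, 40 of 74 in the higher set and 54 of 104 in the lower set, and the empty band around 0 on the vertical axis comes from the selection.

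Measured by CPM means, head levels lay in 3 positions relative to the body columns. In the higher set the mean of the 8 heads was above both body column means for 29 transcripts, between them for 34 and below both for 11. In the lower set it was above both for 40, between them for 55 and below both for 9. These positions share the body column libraries with the rule and carry no test. Heads had at least 4 times the body column mean for 5 higher and 3 lower transcripts. Body columns had at least 2 times the head mean for 4 higher and 3 lower transcripts.

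A group of 3 higher transcripts was head-rich, with a head mean at least 10 times the body column mean. One of them, GGKF01044091.1, had the largest ratio among the 71 higher transcripts with more than 3 counts in each library. It had 1.59, 0.950, 2.07 and 2.68 CPM in RNAi body columns, against 0.577, 0.650 and 0.203 CPM in control body columns, a ratio of 3.83. Its lowest library held 3.55 counts, so the control values rest on few reads. Heads had 33.7, 44.2, 55.4 and 64.2 CPM after RNAi and 63.2, 54.8, 57.6 and 53.3 CPM in controls. The heads thus stood far above all body columns, and the 2 head groups overlapped. Head minus body column was 5.60 on the log2 scale with an SE of 0.21. The transcript reached 10 CPM through the heads alone, with a mean of 53.3 CPM there and 1.246 CPM in body columns, so this value is a description with no test.

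The other two head-rich transcripts of the higher set had the same order of tissues. The more abundant had 22.3, 15.2, 31.8 and 35.8 CPM in RNAi body columns and 13.9, 9.51 and 14.1 CPM in control body columns, beside a mean of 775 CPM in heads. The other had 0.443, 0.151, 3.30 and 7.18 CPM in RNAi body columns, beside 0.0624 CPM in control body column replicate 2 and 0 in replicates 3 and 4, and 243 CPM in heads on average. Both are given without ID, and were chosen after their values were seen. Other head-rich transcripts were followed in the same libraries, taken as those with at least 10 CPM in every head and a head mean at least 20 times the body column mean. The 84 that are no members summed to 169, 103, 255 and 382 CPM in RNAi body columns, and to 124, 234 and 138 CPM in control body columns. These groups overlapped. RNAi body column replicates 3 and 4 were highest both for this sum and for the 3 higher transcripts. Control body column replicate 3, at 234 CPM, lay above RNAi replicates 1 and 2 for this sum. For the 3 higher transcripts it was the lowest, with 10.2 CPM beside 24.3 and 16.3 CPM in RNAi replicates 1 and 2. The part of head RNA in these differences was not tested. Without the 3, the higher set summed to between 4959 and 5760 CPM in RNAi body columns and between 2778 and 3381 CPM in control body columns. In heads it then summed to between 3814 and 6168 CPM after RNAi and between 4524 and 6407 CPM in controls.

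The most abundant higher transcript, GGKF01044407.1, was abundant in every library. It had 870, 916, 923 and 1137 CPM in RNAi body columns, against 612, 375 and 730 CPM in control body columns, a ratio of 1.68. RNAi heads had 728, 834, 932 and 1043 CPM and control heads 1005, 738, 766 and 806 CPM. Control body column replicate 3 was the lowest of the 15 libraries. Without it the ratio was 1.43, under the limit of the rule, and without control body column replicate 4 it was 1.95. Head minus body column was 0.060 with an SE of 0.12 on the log2 scale, which was not called (edgeR, BH adjusted p = 0.752). It ranged from -0.085 to 0.15 over the alternatives run, with the negative value without control body column replicate 3.

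In the lower set, GGKF01007364.1 had the largest ratio among the 102 members with more than 3 counts in each library. It had 5.94, 6.14, 3.76 and 8.55 CPM in RNAi body columns, against 18.8, 30.0 and 14.9 CPM in control body columns, a ratio of 0.288. That difference was not called (edgeR, BH adjusted p = 0.170), although the rule chose on it. Its heads had 20.5, 27.4, 9.25 and 3.07 CPM after RNAi and 16.4, 26.4, 12.4 and 5.28 CPM in controls. Within a treatment, heads spanned a wider factor between their lowest and highest library than body columns did, and RNAi and control heads overlapped. Head minus body column was 0.46 with an SE of 0.43 on the log2 scale, which was not called (edgeR, BH adjusted p = 0.46).

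The most abundant lower transcript, GGKF01044851.1, was higher in heads. Its levels were 180, 134, 130 and 151 CPM in RNAi body columns, against 216, 286 and 200 CPM in control body columns, a ratio of 0.635. That difference was not called (edgeR, BH adjusted p = 0.0634), although the rule chose on it. Heads had 470, 508, 663 and 584 CPM after RNAi and 620, 548, 677 and 578 CPM in controls. Every head lay above every body column, and the head groups overlapped. The contrast of heads and body columns holds libraries that the rule chose on, so its values are a description. Head minus body column was 1.58 with an SE of 0.11 on the log2 scale, with all 8 heads above every body column (edgeR, adjusted p = 3.51e-08 after BH). Over the alternatives run it was between 1.51 and 1.71. Without control body column replicate 3 its ratio of RNAi to control body columns was 0.714.

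**Figure D4:**
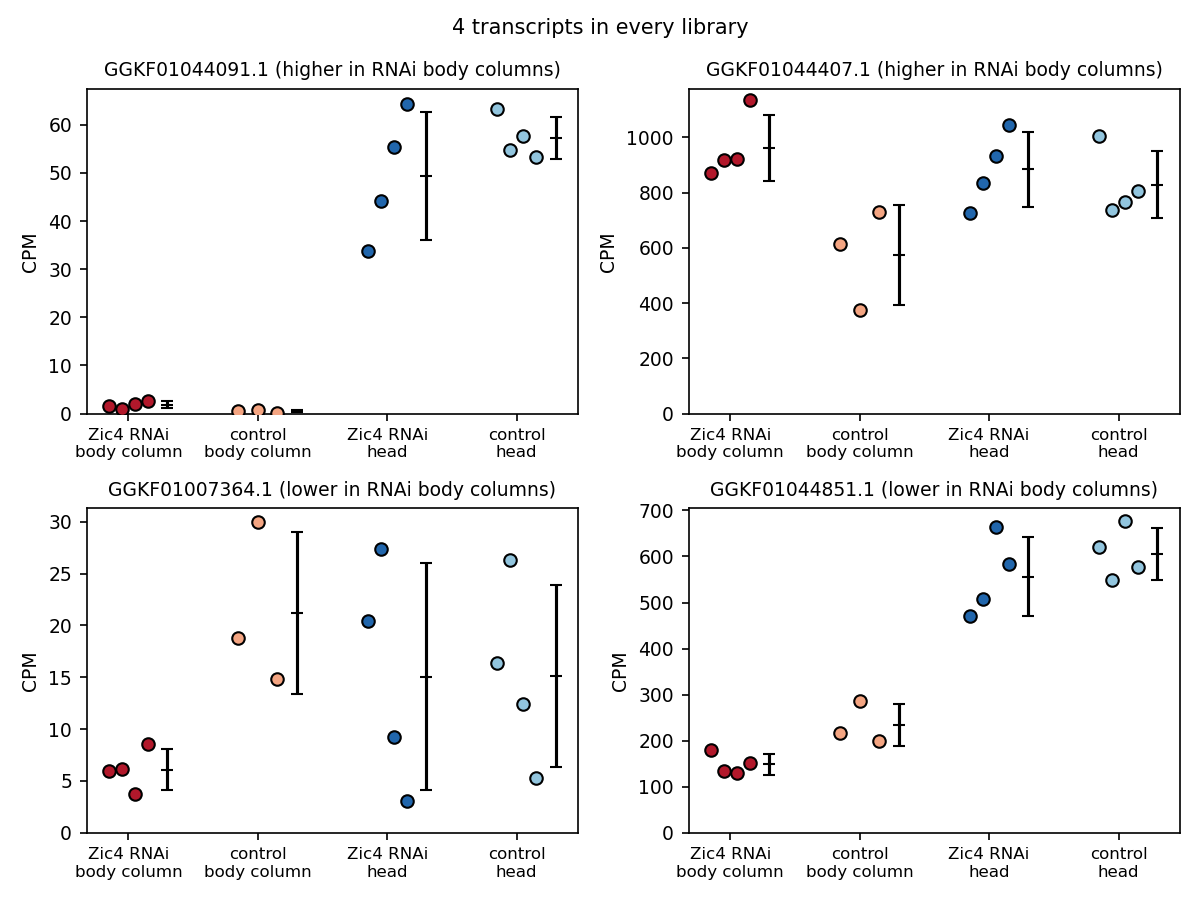
CPM of 4 transcripts in every library, 1 point per library, with mean and SD beside each group. The top panels show transcripts higher in RNAi body columns and the bottom panels transcripts lower there, and the head groups overlap in all 4 panels.

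A few members were listed at 0 in single libraries, where an exact 0 can be a failed estimate. In the higher set 3 of 74 had a 0 in at least 1 library, and in the lower set 2 of 104. One higher transcript was at 0 in all 3 control body columns and had 28.2, 23.2, 32.6 and 27.3 CPM in RNAi body columns. Set against a floor of 3 counts per library the RNAi mean was 157-fold higher. That is no lower bound if the zeros are failed estimates, and whether reads were shared with similar contigs was not tested for this transcript. Its heads had 0, 9.36, 17.8 and 29.7 CPM after RNAi and 17.8, 6.28, 18.1 and 14.1 CPM in controls. Its fitted tissue difference of 4.08 on the log2 scale depends on how the fit treats the zeros, since heads averaged 14.2 CPM and body columns 15.9 CPM. Without it, 22 in place of 23 higher transcripts were called toward the head.

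Median variation between libraries of 1 group was mostly larger among the members than among all transcripts of similar abundance, in heads and in body columns. This is a description with no test, and the rule chose on the body columns. The coefficient of variation (CV, the SD in percent of the mean) was taken within each group and its median given. Between 10 and 20 CPM it was 16.9% in RNAi heads and 16.2% in control heads for the 27 higher transcripts, 17.5% and 16.2% for the 63 lower ones, and 13.8% and 13.2% for all 3248. From 20 to 50 CPM it was 16.6% and 10.4% for the 27 higher, 18.0% and 15.2% for the 28 lower, and 10.7% and 10.3% for all 3326. At 50 CPM or more it was 22.1% and 16.9% for the 20 higher, 14.8% and 9.50% for the 13 lower, and 8.84% and 8.25% for all 2974. A range of at least 2-fold within the 4 RNAi heads was found for 17.6% of the higher and 13.5% of the lower set, beside 4.53% of all transcripts at 10 CPM. Within control heads the shares were 8.11% and 13.5%, beside 4.24%.

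The same libraries were at the ends of these ranges for many members. Among RNAi heads, replicate 1 was the lowest for 48 of the 74 higher transcripts (64.9%, beside 24.6% of all transcripts at 10 CPM) and the highest for 61 of the 104 lower ones (58.7%, beside 28.3%). RNAi head replicate 4 was the highest for 43 of the 74 (58.1%, beside 37.5%). Among control heads, replicate 1 was the highest for 38 of the 74 (51.4%, beside 27.6%), while replicate 4 was the highest for 52 of the 104 (50%, beside 43.7%). Among RNAi body columns, replicate 4 was the highest for 42 of the 74 (56.8%) and for 52 of the 104 (50%), beside 35.5% of all. Among control body columns, replicate 2 was the lowest for 49 of the 104 (47.1%, beside 34.0%). Some shares were far below those of all transcripts. Control head replicate 4 was the highest for 4 of the 74 (5.41%, beside 43.7%), and RNAi head replicate 2 the lowest for 12 of the 74 (16.2%, beside 46.8%). Smaller departures were found for control body column replicate 3, the lowest for 40 of the 74 (54.1%, beside 46.6%). Control body column replicate 4 was the highest for 49 of the 104 (47.1%, beside 51.7%). The share of 64.9% for RNAi head replicate 1 was the farthest from that of all transcripts among those given here. Members that share such a library are not independent of each other.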

How the data were processed

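The authors deposited expected counts, estimated read numbers per assembled contig, for 79784 contigs in 15 libraries. Of the nonzero deposited counts, 74.2% were not whole (tolerance 1e-06). Salmon, with no version, and DESeq2 1.26.0 are named in the submitters' processing notes with no role stated, and the assembly and settings are not given in the sources used here. Libraries were made with a stranded TruSeq kit, per the labels' protocols. Groups and replicate numbers come from the titles.

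CPM for the rule used the deposited counts. For tests, counts were rounded, which changed a total by at most 145. The quasi-likelihood test of edgeR 4.0.16 (R 4.3.3) was fitted to all 15 libraries with a mean per group, filterByExpr and TMM factors, and adjusted (BH) over 31142 transcripts, with 0.05 as the threshold. SE was derived from the fold change and its F statistic. The test was checked on simulated data. DESeq2 1.42.0 was an alternative. Counting floors cover counting error only. Within-group pairs of libraries differed by 8.67 to 72.9 per degree of freedom (chi-square), beyond sampling noise.

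The members and lists were chosen with earlier results of these data known. In each direction the text names the member with the largest ratio among those with more than 3 counts in each library, and the most abundant one.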

Additional observations from a re-analysis of the deposited data

Results flagged for a closer look

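Zic4 RNAi body column replicate 4 stood apart from the other 3 RNAi body columns in both summed levels. The 74 higher transcripts summed to 5805 CPM in it, and the nearest of the others had 5068 CPM. The 104 lower transcripts summed to 2128 CPM in it, with 1916 CPM in the nearest. Each gap exceeded the critical value of Dixon's test for 4 libraries at the 95% level. Both sums are over members chosen on these libraries and come from the same library, so the gaps are a description. In all 24 groups of levels were examined, and chance alone marks about 1 in 20. This library also had the lowest total, 16020872 counts, and the highest sum of the other head-rich transcripts among body columns, 382 CPM, and the part of either in its levels was not tested. Without it, 71 higher and 152 lower transcripts met the rule, of which 55 and 93 were members of the original sets.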

How the results depend on the processing

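The number of chosen transcripts followed the limits of the rule. With a minimum mean of 5 CPM there were 133 higher and 246 lower transcripts, with 20 CPM 47 and 41, and with no minimum 316 and 737. A body column fold of 2 left 10 and 9, and a head window from 0.9 to about its inverse left 34 and 49. Leaving out 1 library gave 68 to 214 higher and 84 to 162 lower. More than 3 counts in each body column left 71 and 103, and leaving out transcripts with a head mean at least 10 times the body column mean, an alternative added after the data were seen, left 71 and 104. Of all tested transcripts, edgeR called 640 between RNAi and control body columns, 1481 in heads and 488 for the difference of the effects. DESeq2 called 2500, 3084 and 1805. In body columns library size alone gave 143, no filter on low counts 274, and a fit of body columns alone 100, and the cause was not tested. Leaving out 1 library gave 103 to 730 calls in body columns, 966 to 1508 in heads and 313 to 444 for the difference. With a term for the replicate number (replicate block) the counts were 101, 987 and 249, and 11 higher and 7 lower members were called in body columns. Same-numbered libraries deviated from their group means with correlations between -0.102 and 0.113, so the numbers were not taken to pair the samples. Of the 40 higher and 54 lower members with a called tissue difference, 36 to 39 and 45 to 52 were also called when any 1 library was left out, 30 and 43 in RNAi libraries alone, and 29 and 27 in control libraries alone. The tissue difference of GGKF01044407.1, not called in any, was -0.085 without control body column replicate 3, and between -0.085 and 0.15 over leaving out any 1 library.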
